A study of Mus musculus with 21 samples.

Results

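Methylated CpG-dense stretches are short places of the genome where many CpG dinucleotides lie close together and nearly all reads are methylated. They were sought on the 19 autosomes in 1 bisulfite library of nucleosome-associated DNA from mouse sperm. Members were chosen by measured values: for each CpG in the deposited table, the CpGs listed up to 100 bp to either side were counted, itself included, and their reads were pooled into a local methylation state, which needed at least 10 reads. A methylated stretch is a run of 8 or more consecutive listed CpGs that each have 15 or more listed CpGs in that window and a state over 80%. Each listed CpG has at least 1 read, so 15 of them always met the minimum of 10 reads, which left out no CpG. Runs chosen in the same way with a state under 20% are the unmethylated stretches, and runs between these limits the partly methylated ones. The rule found 322 methylated stretches with 4531 CpGs, against 17130 unmethylated stretches with 778445 CpGs, among 18225 CpG-dense runs in all; the other 773 were partly methylated. Methylated stretches were thus 1.77% of the CpG-dense runs, with 53.2 unmethylated stretches for each of them.

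In mammals, DNA methylation sits mostly on the cytosine of CpG dinucleotides. CpGs are sparse in most of the genome, where they are usually methylated, and dense in CpG islands, many of which hold gene promoters and are usually free of methylation, also in germ cells. Dense CpGs that are methylated are known from inside genes, from imprinted regions, from repeats and from promoters of some genes of the germ line in somatic cells. In sperm most histones are replaced by protamines, and the nucleosomes that stay are reported to lie preferentially in CpG-rich DNA.

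The series holds 21 samples of round spermatids and sperm; 1 was used here, and 20 were not analysed here. The sperm came from C57BL/6J mice and were taken from a swim-up preparation, so only motile cells were kept; no treatment is named, and the age of the sperm donors is not given in the labels. Micrococcal nuclease, which digests DNA between nucleosomes, was used to prepare mononucleosomal chromatin, so the number of reads over a CpG reflects recovery in this fraction as well as sequencing and alignment. Bisulfite turns unmethylated cytosine into uracil, and each read then shows whether its CpG was methylated. The table lists 15119333 autosomal CpGs, each with at least 1 read, with 59869498 CpG reads and a median of 3 reads per CpG; 69.9% of these reads were methylated. There is 1 library, so stretches and CpGs are not replicates, no test between groups of samples was possible, and all intervals are 95% intervals for counting error only. One read can cover several CpGs and PCR copies are not marked, so these intervals are too narrow.

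The 2 promoters shown here are the only placed promoter that a methylated stretch overlapped and, for contrast, the promoter of the gene that holds the stretch with the most CpGs. Dazl encodes an RNA-binding protein that germ cells need for their development. Its promoter, chr17:50293571-50293870 on the minus strand of GRCm38.p6, has 28 CpGs, of which 27 were listed and 10 lie in the methylated stretch. Zbtb7a encodes a zinc-finger transcriptional repressor. Its promoter, chr10:81136021-81136320 on the plus strand of GRCm38.p6, has 31 CpGs, of which 29 were listed and none lies in a methylated stretch. Both sequences are from RefSeq, run 5′ to 3′ along transcription, and cover 250 bases before and 50 bases after the gene's start. Capitals mark the CpGs of the methylated stretch in Dazl, and all listed CpGs in Zbtb7a.
Dazl: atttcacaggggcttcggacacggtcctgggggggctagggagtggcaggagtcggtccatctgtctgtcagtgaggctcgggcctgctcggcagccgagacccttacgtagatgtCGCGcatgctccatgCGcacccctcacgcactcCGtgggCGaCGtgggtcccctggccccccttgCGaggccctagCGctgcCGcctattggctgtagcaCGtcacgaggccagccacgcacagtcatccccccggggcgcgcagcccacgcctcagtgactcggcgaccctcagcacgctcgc
Zbtb7a: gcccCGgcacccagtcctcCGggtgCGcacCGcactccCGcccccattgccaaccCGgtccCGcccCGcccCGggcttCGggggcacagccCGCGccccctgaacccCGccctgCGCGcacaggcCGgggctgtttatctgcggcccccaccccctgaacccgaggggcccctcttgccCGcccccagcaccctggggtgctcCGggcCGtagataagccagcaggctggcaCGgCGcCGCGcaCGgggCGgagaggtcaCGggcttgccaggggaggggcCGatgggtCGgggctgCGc
The capitals of Dazl had 15 methylated CpG reads of 16, and those of Zbtb7a 0 of 61. The whole Dazl promoter had 56 methylated CpG reads of 67, a level of 83.6%.

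Methylated stretches were small. They held a median of 14 listed CpGs (quartiles 10 and 16), and unmethylated stretches a median of 33 (quartiles 19 and 61.75). Their median length was 99 bp (quartiles 79 and 128), against 297 bp (quartiles 175 and 512) for unmethylated stretches. Partly methylated stretches were nearly as small, with medians of 14 listed CpGs and 116 bp. Longer than 150 bp, about the length of DNA in a nucleosome core, were 57 of the methylated stretches (17.7%) and 80.7% of the unmethylated ones. At least 20 CpGs were present in 39 methylated stretches (12.1%) and in 72.9% of the unmethylated ones. Within the stretches the CpGs were about as close together, with a median of 12.46 listed CpGs per 100 bp in methylated and 11.5 in unmethylated stretches. The window around each CpG was less full: the mean count per window had a median of 16.2 in methylated and 20.2 in unmethylated stretches. CpG-dense CpGs with a high state also lay less often in such runs. Of the 7096 CpG-dense CpGs with a high state, 63.9% lay in runs long enough to be members, against 96.6% of the 806027 with a low state.

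**Figure D1:**
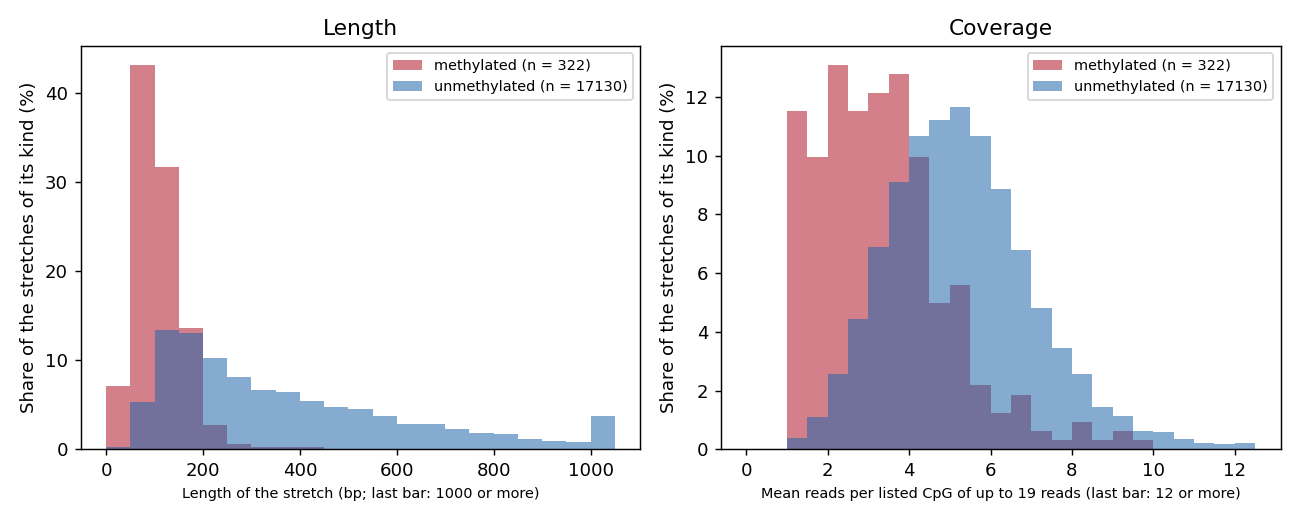
Share of the methylated (red) and unmethylated (blue) stretches by length in bp (left) and by mean reads per listed CpG of up to 19 reads (right); darker areas are where the bars overlap. Methylated stretches gather below 150 bp and lie to the left in coverage, with medians of 99 bp and 3.11 reads against 297 bp and 5.13 reads.

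The 5 stretches named for the most listed CpGs lay inside protein-coding genes. The fifth place was a tie at 28 CpGs, settled by genome order, and the other stretch with 28 CpGs, chr19:24205464-24205740, lay in no placed gene. The first, chr10:80606772-80607172 on mm9, had 41 CpGs in 401 bp and lay 49.9% of the way into Zbtb7a; its level was 91.6% at 5.24 ± 1.88 reads per CpG (SD over CpGs). The second, chr9:121037068-121037428, had 39 CpGs at a level of 98.9% and lay in Ulk4, which encodes a member of the ULK kinase family. Then came chr11:109149978-109150188 with 36 CpGs in Rgs9, a regulator of G-protein signalling, at a level of 87.8%. This stretch was the densest of the 5, with 17.1 listed CpGs per 100 bp. The stretch chr3:126808970-126809150 had 29 CpGs at a level of 99.2% in Ank2, which encodes an ankyrin that ties membrane proteins to the cytoskeleton. The stretch chr5:112736752-112737041 had 28 CpGs at a level of 97.6% in Tpst2, which encodes a sulfotransferase acting on tyrosines of secreted proteins. The promoters of these 5 genes had levels of 0% to 5.56%.

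The level of the members was the value that chose them and is given as a description. Pooled over all CpGs, 16022 of 16902 reads were methylated in methylated stretches, a level of 94.8% (Wilson interval 94.4 to 95.1), and 2.48% (2.47 to 2.50) in unmethylated stretches. In 118 stretches every read was methylated, 208 had levels over 95%, and 111 had levels of 80% to 95%. The remaining 3 had own levels of 77.3%, 74.1% and 72.7%, from 44, 27 and 11 reads; the state that chose them also counts reads outside the run. A stretch had a median of 39.5 CpG reads (quartiles 27 and 60.75), and the lower bound of its Wilson interval was over 80% in 228 stretches. This bound treats every CpG read as independent, so the 228 are not all supported by many separate reads. Among them is chr5:136779276-136779320, with 16 CpGs of 1 read each in 45 bp and a bound of 80.6%. Single CpGs can be judged where they were read 10 times or more, which held for 106 CpGs of methylated stretches. Their median level was 93.8% and the lowest 64.3%; 46 were at 100% and 7 under 80%. The thinnest members rest on very few reads, since 7 stretches had no CpG read more than once and 45 none read more than 2 times.

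One stretch stands apart in depth. At chr11:3093351-3093512 all 16 CpGs had over 19 reads, with a mean of 121 reads and a highest count of 172, and the level was 91.1%. It alone holds 1937 of the 16902 CpG reads. Its flanks hold 11109 of the 68585 flank reads. Without it the pooled level of the other 321 stretches was 95.3% and the flank level 86.3%. It has no coverage value below, where CpGs above 19 reads are left out.

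Reads over methylated stretches were fewer than over unmethylated ones. Counting CpGs of up to 19 reads, the mean was 3.31 ± 2.29 reads per listed CpG in methylated and 5.42 ± 3.41 in unmethylated stretches (SD over CpGs), a ratio of 0.611 (0.601 to 0.621). The median over stretches was 3.11 reads (quartiles 2.07 and 4.2) in methylated and 5.13 reads (quartiles 4 and 6.32) in unmethylated stretches. Of the 321 methylated stretches with a value, 285 (88.8%) lay below the unmethylated median, and 5.61% lay above the unmethylated upper quartile. Both kinds overlap, and 39 methylated stretches had a mean over 5 reads. CpGs with 1 read made up 21.9% of those in methylated and 8.29% of those in unmethylated stretches, whereas CpGs with 10 or more reads made up 2.34% in methylated and 12.9% in unmethylated stretches.

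The lower coverage was also seen at equal CpG density. Among CpGs with exactly 15 listed CpGs in their window, the mean was 3.13 reads in methylated and 4.69 in unmethylated stretches, a ratio of 0.666. The ratio was 0.682 at 16, 0.690 at 17, 0.701 at 18 to 19 and 0.709 at 20 to 22 listed CpGs. The class of 23 or more is open upward and so not one of equal density. Its ratio was 0.527, from 199 methylated and 385359 unmethylated CpGs. With unmethylated CpGs weighted to the densities of the methylated ones, the ratio was 0.680. Restricted to stretches of 8 to 16 CpGs, coverage was 3.25 reads in 242 methylated and 4.95 in 3308 unmethylated stretches. Restricted to stretches over 5 kb from a placed gene start, it was 3.38 reads in 288 methylated and 5.52 in 4900 unmethylated stretches. CpGs with no read are not listed, and a stretch needs 15 listed CpGs in each window. Places of either kind with fewer CpGs read could thus not become members. Places read thinly at many CpGs could, and 45 methylated stretches had no CpG read more than 2 times.

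**Figure D2:**
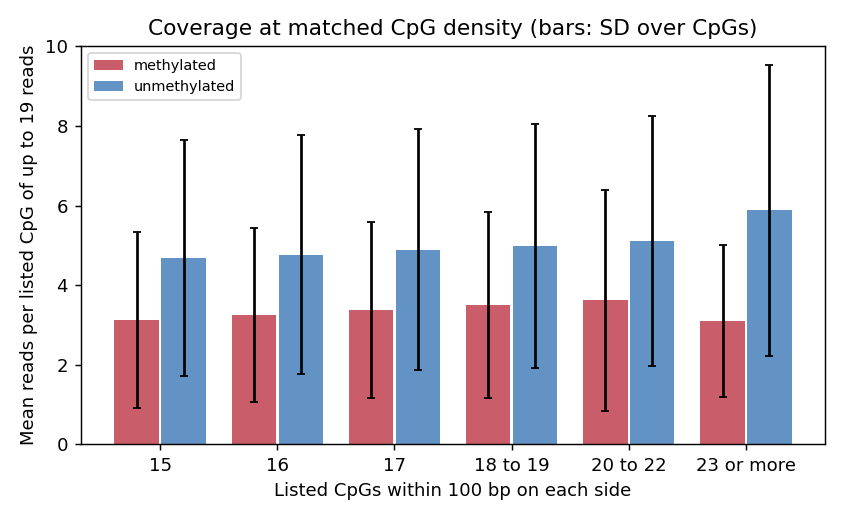
Mean reads per listed CpG of up to 19 reads in methylated (red, left bar) and unmethylated (blue, right bar) stretches, by the count of listed CpGs in the window of 100 bp to either side; error bars are the SD over CpGs. The methylated mean is lower in each of the 6 density classes, with ratios of 0.527 to 0.709, and the SDs overlap. The ratio of 0.527 is that of the last class, which is open upward and so not one of equal density.

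Methylated stretches were read no more deeply than the DNA beside them. The mean was 3.31 reads in methylated stretches and 3.28 in their flanks between 100 bp and 2 kb, a ratio of 1.01 (0.991 to 1.03), although CpGs were far denser inside. Unmethylated stretches had 5.42 reads inside and 4.36 in their flanks. The stretch was read more deeply than its own flanks in 161 of 321 methylated stretches (50.2%) and in 74.5% of 17127 unmethylated ones. Over all listed autosomal CpGs the mean was 3.27 reads, which is close to the value inside methylated stretches.

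Among the methylated stretches, stretch means lay between 1 and 9.81 reads. As a description over 321 stretches of 1 library, Spearman's correlation of the mean reads was 0.26 with length, 0.0916 with the number of CpGs in the window and −0.36 with CpGs per 100 bp. Among unmethylated stretches the last of these was 0.10. The highest mean was 9.81 ± 4.72 reads (SD over CpGs) at chr11:119036039-119036194, where the flanks had 2.61 reads. The next were 9.25 reads at chr14:43800911-43800934 and 9.11 reads at chr12:56167865-56167928 in 2700097O09Rik. Then came 8.93 reads at chr17:66011078-66011177 in Rab31, which encodes a small GTPase of membrane traffic, and 8.48 reads at chr8:124927054-124927227 in Zc3h18, which encodes a zinc-finger protein of RNA metabolism. In these 5 the flanks between 100 bp and 2 kb had means of 2.50 to 3.26 reads. The 5 were chosen for high counts, and the nearest 100 bp are left out of the flanks. Whether the high counts end at the stretch was not tested. At the other end, 7 stretches tied with 1 read at each of their CpGs, and genome order chose 5 of them; 3 of these 5 lay in Cux1, a homeobox transcription factor gene, Nfu1, a gene for iron-sulfur cluster assembly, and Fbxo31, an F-box protein gene. The flanks of these 5 had 3 to 3.76 reads.

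Some methylated stretches had evenly spaced CpGs. In 83 of 322 (25.8%) at least 50% of the distances between neighbouring listed CpGs had 1 value, against 63 unmethylated stretches (0.368%). Among stretches of 8 to 16 CpGs the shares were 23.6% of methylated and 1.36% of unmethylated stretches. The repeated distance was 2 bp in 50 of the 83, which is the distance of CpGs in an uninterrupted CG repeat, and 4 bp in 10. Of all distances inside methylated stretches 21.5% were 2 bp, against 13.97% inside unmethylated ones. All distances were equal in 3 stretches. The one with the most CpGs, chr17:33008882-33008910, had 15 with all 14 distances at 2 bp. All 17 of its 17 CpG reads were methylated, at a mean of 1.13 reads per CpG, so few separate reads can lie behind them. At chr8:107728768-107728848, 14 of 15 distances were 5 bp. Unlisted CpGs lengthen distances, so these shares count what the table lists, and they were looked at after the values were seen.

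Low coverage went with the 2 bp distance. The mean was 2.22 ± 1.87 reads in the 50 stretches with this distance, 3.68 ± 3.11 in the 33 evenly spaced at another distance and 3.51 ± 2.16 in the 239 without an even spacing (SD over CpGs). Of the 7 stretches with no CpG read more than once, 6 had the 2 bp distance and 1 another even distance. The mean exceeded that of the own flanks in 9 of the 50 stretches with the 2 bp distance, in 16 of the 33 at another distance and in 136 of 238 stretches without an even spacing. Evenly spaced unmethylated stretches had 3.96 reads, against 5.42 in other unmethylated ones. Without the evenly spaced stretches of both kinds the ratio of methylated over unmethylated coverage was 0.648, and that of methylated stretches over their flanks was 1.08.

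Methylation went on beside the stretches. Between 100 bp and 2 kb, the pooled level of the flanks was 85.5% (85.2 to 85.7) around methylated and 17.3% around unmethylated stretches. The median over stretches was 91.4% (quartiles 85.7 and 95.5) around methylated and 23.2% (quartiles 10.3 and 40.9) around unmethylated stretches. CpGs within 100 bp enter the state that chose the stretch and are left out of these flanks. Those farther out can still belong to other chosen stretches, so they are not independent of the rule. Without CpGs of other methylated and unmethylated stretches, the pooled flank level around methylated stretches was 86.2%. By distance, the level around methylated stretches was 90.4% at 100 to 250 bp, 80.7% at 250 to 500 bp and 83.4% at 1750 to 2000 bp. With CpGs of up to 19 reads it was 88.9%, 91.2% and 85.2% in these bins, so the low value at 250 to 500 bp rests on deeply read CpGs. Around unmethylated stretches it was 4.39%, 6.75% and 39.4% in the same bins, with no limit on reads.

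The density of listed CpGs fell steeply outside methylated stretches. It was 12.9 per 100 bp inside, 1.90 at 100 to 250 bp and 1.21 at 1750 to 2000 bp. For unmethylated stretches it was 12.01 inside, 4.18 at 100 to 250 bp and also 1.21 at 1750 to 2000 bp. Methylated stretches thus stand as narrow peaks of listed CpG density in methylated DNA, whereas beside unmethylated ones the density fell over a longer distance. These bins keep CpGs of other stretches, and their part in the slower fall was not tested. Coverage beside methylated stretches was flat at 3.18 to 3.39 reads in all bins. Beside unmethylated stretches it was 4.41 to 4.66 reads up to 750 bp and 3.82 reads at 1750 to 2000 bp.

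**Figure D3:**
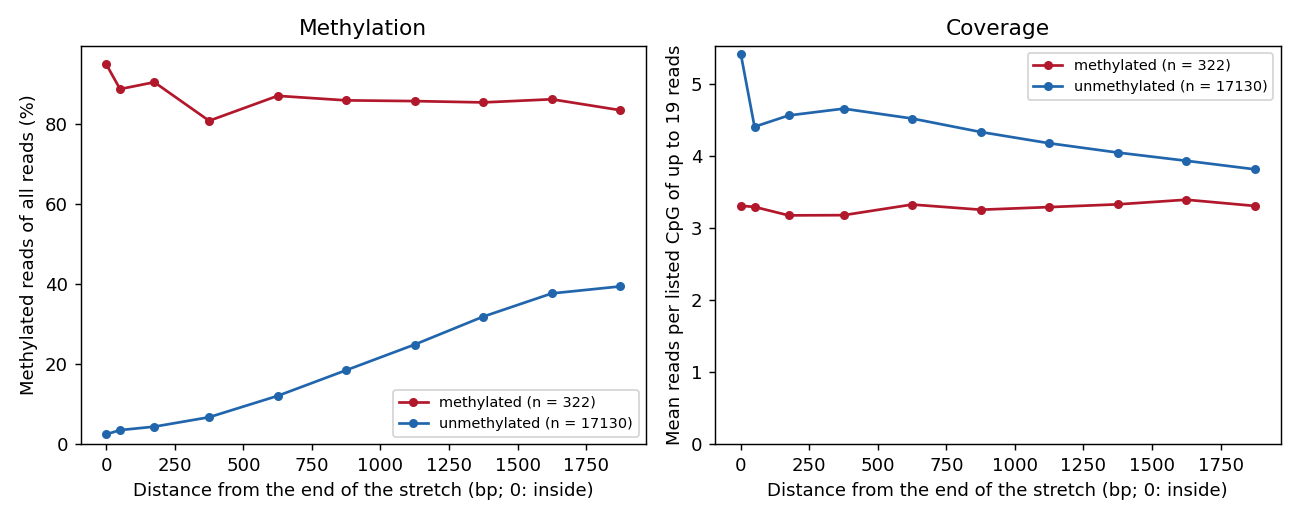
Pooled methylation level in percent (left) and mean reads per listed CpG of up to 19 reads (right) inside methylated (red) and unmethylated (blue) stretches and in bins up to 2 kb on both sides, by distance in bp from the end of the stretch. For methylated stretches the level lies between 80.7% and 94.8% and the coverage between 3.18 and 3.39 reads; for unmethylated stretches the level climbs to 39.4% and the coverage is highest inside.

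A few members lay beside unmethylated DNA. Of 315 methylated stretches with at least 5 listed CpGs and 20 reads in the flanks, 270 had a flank level over 80%, 43 were between 20% and 80%, and 2 were under 20%. With CpGs of up to 19 reads 1 was under 20%. Where both sides had 10 reads or more, 213 of 296 had both sides over 80%, and 11 had 1 side under 50% and the other over 80%. None had both sides under 50%. An unmethylated stretch lay within 2 kb of 6 members (1.86%) and within 10 kb of 83, and the median distance to the nearest one was 28933 bp.

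Sides differed in the 5 members with the lowest flank levels. At chr3:61962747-61962891 the left side was at 94.8% and the right side at 10.9%, but 4 flank CpGs above 19 reads hold 1026 of the 1168 flank reads there. Without them the right side was at 50.8% and the whole flank at 74.6%, and the nearest unmethylated stretch lay 179801 bp away. At chr8:10155115-10155211, located 1252 bp from the placed start of Myo16, which encodes an unconventional myosin, the sides were at 5.42% and 87.3%. At the Dazl stretch, chr17:50432978-50433078, they were at 8.36% on the gene's side and 60.9% on the other. At chr7:16556291-16556393 they were at 86.1% and 24.96%. At chr7:134891768-134891939, located 1564 bp from the nearest placed start of Fbxl19, which encodes an F-box protein with a CpG-binding domain, they were at 8.29% and 95.7%.

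Gene context was found without coordinates of another build. The promoter sequences of RefSeq, 300 bases each on GRCm38.p6, were placed on the table by the spacing of their own CpGs, and a gene's span was taken from its placed start by its annotated length. Of 15982 promoters with 8 or more CpGs, 14635 could be placed once, 14615 of these on the annotated chromosome, and 14597 were kept after a check against neighbouring placements. Promoters poor in CpGs, or with fewer than 50% of their CpGs listed, were not placed, so genes are undercounted. On the 18 autosomes with placed promoters there were 312 methylated and 16631 unmethylated stretches.

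Methylated stretches were nearly absent from these promoters. A placed promoter was overlapped by 1 methylated stretch (0.321%), at Dazl, and by 7965 unmethylated stretches (47.9%). Of every 1000th listed CpG on the 18 autosomes with placed promoters, 14590 in all, 1.84% lay in such a promoter. A placed start lay within 5 kb of 24 methylated stretches (7.69%), of 70.5% of unmethylated stretches and of 12.1% of the sampled CpGs. The median distance to the nearest placed start was 30653 bp for methylated and 320 bp for unmethylated stretches. Over all autosomal placed promoters with 15 or more CpGs and 10 reads, 10616 of 10768 (98.6%) were under 20% methylated and 17 were over 80%. Of these 17, the 2 protein-coding rows were Dazl and Th, whose product is the rate-limiting enzyme of catecholamine synthesis, at 83.6% and 81.0%; the other 15 were annotated as lncRNA.

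Inside genes they lay towards the end. The span of a placed gene held 171 methylated stretches (54.8%), 58.6% of unmethylated stretches and 34.7% of the sampled CpGs. Of the 171, 20 lay in the first 25% of the span, 31 and 46 in the next parts of the same size, and 74 (43.3%) in the last 25%. Of unmethylated stretches inside genes 86.7% lay in the first and 4.31% in the last 25%, and of the sampled CpGs 31.2% and 23.9%. The median position was 69.0% of the way into the gene for methylated and 0.913% for unmethylated stretches. Partly methylated stretches inside genes also lay late, at a median of 61.0%. The share in the last 25% was 37.5% for the evenly spaced members and 45.0% for the others. Exons and introns were not assigned.

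**Figure D4:**
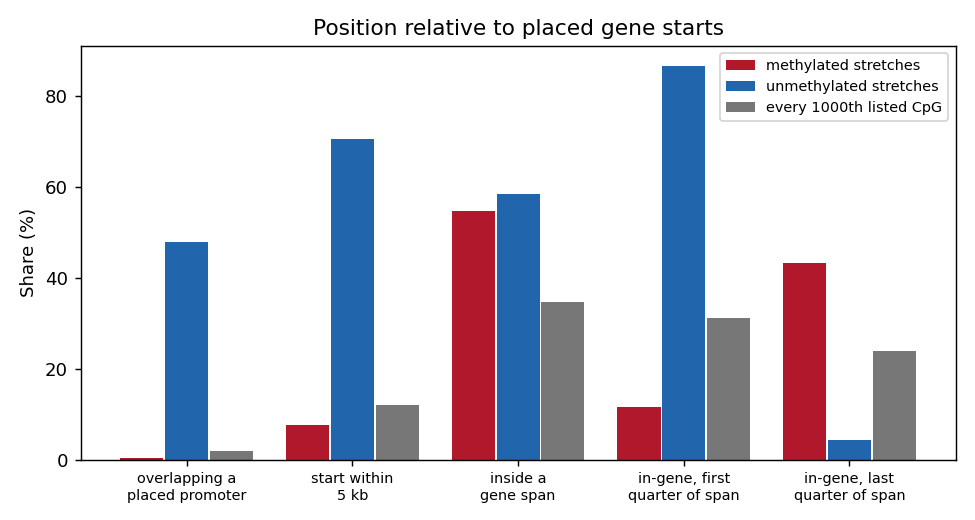
Share in percent of methylated stretches (red), unmethylated stretches (blue) and every 1000th listed CpG (grey) at placed promoters, near placed starts, inside gene spans and, of those inside, in the first and last 25% of the span. Methylated stretches are at 0.321% for promoters and 43.3% for the end of the gene, against 47.9% and 4.31% for unmethylated stretches.

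The genes that held a methylated stretch had mostly unmethylated promoters, as did placed promoters in general. Among all 14166 autosomal placed promoters with 10 reads or more, 12824 were under 20%, 964 between 20% and 80% and 378 over 80%. For the 171 stretches inside a gene, the gene's own placed promoter was under 20% methylated in 165, between 20% and 80% in 5 and over 80% in 1, with 1 gene taken where a stretch lay in 2. The median level was 97.4% for the stretches and 1.94% for the promoters. The promoter had the higher mean reads in 113 of the 171 pairs, with medians of 3.31 reads for the stretches and 3.95 for the promoters. Stretches in 1 gene share its promoter, and placing a promoter required listed CpGs, so promoters with few listed CpGs are left out. In all, 167 genes held a member, since 4 stretches lay in the spans of 2 genes each, and 8 genes held 2 members: Kcnc1, Map1s, Pheta1, Scaf1, Snrnp70, Ulk4, Ywhag and Zbtb7a. Kcnc1 encodes a voltage-gated potassium channel, Map1s a microtubule-associated protein, Snrnp70 a protein of the U1 spliceosomal particle and Ywhag a 14-3-3 protein. These 8 are named because they held more than 1 member, which was seen in the data.

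Dazl was the member closest to a gene start. Its stretch lay 33 to 133 bp before the RefSeq start and had 10 CpGs with 1.6 reads on average. The level of this stretch was 93.75% (71.7 to 98.9) from 16 CpG reads. The lowest state among its CpGs was 80.4%, just over the limit of 80%. In bins of 250 bp along transcription, the level was 92.3% at 1000 to 750 bp before the start, 33.3% at 500 to 250 bp before it and 82.4% (69.7 to 90.4) in the last 250 bp before it. After the start it was 35.9% (26.1 to 47.0) in the first 250 bp, 25.5% in the next and 1.22% at 500 to 750 bp, the last from 164 reads. Levels before the start were thus uneven, and they were low 500 bp and more into the gene; the nearest unmethylated stretch lay 505 bp away. Coverage was 2.68 reads per CpG in the last bin before the start and 4.97 reads at 500 to 750 bp after it.

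**Figure D5:**
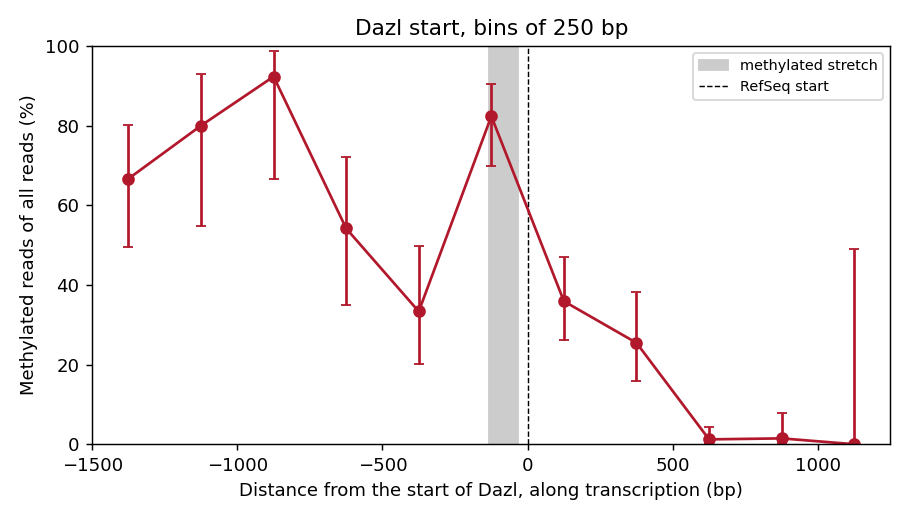
Methylation level in percent around the start of Dazl in bins of 250 bp, by distance from the RefSeq start along transcription; points are pooled reads, bars 95% Wilson intervals, and the grey band is the methylated stretch. The level is 82.4% just before the start and 1.22% at 500 to 750 bp after it.

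Methylated stretches were found on all 19 autosomes. Their number was lowest on chromosome 13, with 7, and highest on chromosome 7, with 34. Per 10 Mb it was 0.597 on chromosome 13 and 2.28 on chromosome 17, with a mean of 1.33. As a share of the CpG-dense runs it was lowest on chromosome 2, at 0.9504%, and highest on chromosome 10, at 3.04%. The last 5 Mb of the autosomes, 3.93% of the listed length, held 29 methylated stretches (9.01%) and 6.00% of the unmethylated ones.

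Most members stood alone. Joined within 10 kb, the 322 stretches formed 306 separate places, of which 11 held 2 or more. The densest place, chr15:76007428-76012001, held 7 stretches with 116 CpGs within 4574 bp, and 371 of its 380 reads were methylated (97.6%). The next by number were pairs, among them chr10:80606772-80610834 in Zbtb7a with 49 CpGs and chr7:52632124-52632604 in Snrnp70 with 43 CpGs. The remaining 295 stretches had no other member within 10 kb.

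Values on either side of the limits of the rule are given as a description, with no test. The 42 members of exactly 8 CpGs had a level of 95.1% and 3.38 reads per CpG, and the 47 runs of 7 CpGs just outside had 96.6% and 3.99 reads. The 38 members with 15 listed CpGs in the window at every CpG had 2.63 reads, and the 54 runs with 14 at every CpG had 2.76 reads. The 554 CpG-dense CpGs with a state over 80% and up to 85% had 3.67 reads, and the 606 with a state over 75% and up to 80% had 3.73 reads.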

How the data were processed

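The deposited table gives, per the file headers, the chromosome, position, total count and methylated count of each CpG; both are raw read counts from the authors. The submitters' processing notes name Bowtie and the mm9 build; how duplicates and strands were handled, and the conversion rate, are not stated there. Whether positions count from 0 or 1 is not stated. The members and lists were chosen with earlier results of these data known. Coverage is the mean of CpGs of up to 19 reads. Stretches named are the 5 each with most CpGs, highest and lowest mean reads, and lowest flank level, among those having 5 or more CpGs within that limit of 19 reads. The stretches, their matching and all summaries were computed with scipy 1.17.1, pandas 2.3.3, numpy 2.4.6 and Python 3.11.15, checked on simulated data; figures used matplotlib 3.10.9. Gene context was planned only with an mm9 annotation, which was not used here. It was added after the data were seen: a RefSeq promoter was placed where at least 8 of its CpGs matched listed positions by spacing, with no other listed CpG between. Promoters of 1 autosome were not used here. Alternatives were other limits of density, state, run length, reads, coverage and flanks.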

Additional observations from a re-analysis of the deposited data

Results flagged for a closer look

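The X chromosome, outside the autosomal rule, held 9 methylated CpG-dense stretches, a signal in data that the comparisons above do not use. They had 131 CpGs and 438 reads at a level of 88.8% (Wilson interval 85.5 to 91.4), and 3.34 reads per CpG. One of them, chrX:166426946-166427094, holds 198 of these reads; the other 8 had 240 reads over 112 CpGs, at a level of 94.2% (90.4 to 96.5) and 2.14 reads per CpG. They were 1.96% of the X chromosome's CpG-dense runs, beside 425 unmethylated and 26 partly methylated ones. The Y chromosome had 0 runs of any kind.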

How the results depend on the processing

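No paired analysis was possible because the values come from 1 library. Of 83 alternative values, 38 stayed within the counting interval or within 1.5 times the count and 45 moved. The ratio of methylated over unmethylated coverage stayed below 1 under every alternative run. With 12 CpGs in the window in place of 15 there were 1906 stretches of median 105 bp, a flank level of 85.1%, a coverage ratio over unmethylated stretches of 0.632 and 6 promoters overlapped; with 20 CpGs there were 34 stretches, a level of 95.2%, a flank level of 86.2%, ratios of 0.581 and, over the flanks, 1.06, and 0 promoters. State limits of 70% and 30% gave a level of 92.6% and a flank level of 84.9%; limits of 90% and 10% gave 97.2%, 87.9% and 0 promoters. Runs of 5 CpGs gave 496 stretches of median 81 bp and a ratio of 0.621; runs of 12 gave 209 stretches, 115 bp, a flank level of 84.1% and 0 promoters. With 20 reads behind the state the flank level was 86.0% and the ratios 0.636 and, over the flanks, 1.06. Without an upper limit on reads the ratio was 0.637 over unmethylated stretches and 0.935 over the flanks; with truncated negative binomial means it was 0.543 and 0.967; with CpGs of up to 12 reads it was 0.652 over unmethylated stretches. Matching density gave 0.680, stretches of 8 to 16 CpGs 0.657, and medians over stretches 0.975 over the flanks. The flank level was 79.3% at 5 kb, 91.4% as a median over stretches and 86.2% without CpGs of other stretches. The following were chosen after seeing the data. Without the deeply read stretch on chromosome 11 the level was 95.3% and the flank level 86.3%; with CpGs of up to 19 reads these were 95.3% and 87.7%. Without evenly spaced stretches the median was 104 bp, the flank level 86.0%, and the ratios 0.648 and, over the flanks, 1.08. The side of 1 on which the ratio over the flanks falls thus depends on the setting. Where no cause follows from the setting itself, the cause was not tested. At a median of 3 reads per CpG, most single CpGs have too few reads for a level.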
